A study of Mus musculus with 12 samples.

Results

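The mouse breast cancer cell line 67NR was compared with the lines 168FARN, 4TO7 and 4T1 for the level of microRNAs (miRNAs). The comparison rests on the 3 arrays of 67NR, out of 12 arrays in all, set against the equal-weight mean of the other 3 lines (3 arrays each) and against each of these lines alone. Of 567 mouse miRNAs on the array, 224 were tested, and the members described are the 92 that lay above every other line in 67NR and the 47 that lay below every other line. A miRNA lay above or below every other line when all 3 single-line differences passed the test in that direction and no 67NR array overlapped any of the 9 other arrays.

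All 4 lines are labelled as wild type, female, of Balb/C background and derived from a spontaneous Balb/C breast cancer, and none carries a treatment. The labels call 67NR, 168FARN and 4TO7 non-metastatic and 4T1 metastatic. Total RNA was extracted with Trizol, and 100 ng was labelled for each one-colour Agilent array. Each name stands for 1 cell line, and 2 of the lines set against 67NR carry the same non-metastatic label, so a miRNA beyond every other line in 67NR is not one that the non-metastatic lines share. The labels do not say whether repeats are separate cultures, so a p-value here measures no more than the spread among these arrays, and that spread may be technical.

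A miRNA is a short RNA that guides an Argonaute protein to partly matching messenger RNAs, which are then translated less and degraded sooner. The bases near its 5′ end, called the seed, do most of the pairing, and miRNAs with one seed form a family with overlapping targets. One hairpin can yield a guide strand and a passenger strand, the latter marked here with a star, and hairpins that lie close together are often cut from one primary transcript. In mammary tumour cells the let-7 family is known as a brake on growth genes, miR-17-92 as a growth-promoting cluster, and the miR-200 family as a keeper of the epithelial state.

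Mature sequences were found in RefSeq (build GRCm38) for 76 of the 139 members, 42 above and 34 below. Those of the miRNAs that carry the largest differences and the contrasts within families are shown 5′ to 3′, with the seed (bases 2 to 8) in capitals.
let-7a: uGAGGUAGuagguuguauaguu
let-7b: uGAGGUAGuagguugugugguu
miR-125b-5p: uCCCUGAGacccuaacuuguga
miR-21: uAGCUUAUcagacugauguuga
miR-29a: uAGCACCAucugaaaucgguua
miR-31: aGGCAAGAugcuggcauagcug
miR-17: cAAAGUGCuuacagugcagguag
miR-17*: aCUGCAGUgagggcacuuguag
miR-18a: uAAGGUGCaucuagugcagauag
miR-19a: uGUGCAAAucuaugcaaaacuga
miR-92a: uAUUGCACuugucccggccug
miR-10a: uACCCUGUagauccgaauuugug
miR-10b: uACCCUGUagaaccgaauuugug
miR-196a: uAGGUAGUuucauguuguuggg
miR-218: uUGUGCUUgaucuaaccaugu
miR-130a: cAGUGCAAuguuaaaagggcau
miR-130b: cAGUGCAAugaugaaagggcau
miR-148a: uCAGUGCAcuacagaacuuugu
miR-148b: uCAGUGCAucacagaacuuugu
miR-101a: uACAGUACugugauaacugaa
miR-101b: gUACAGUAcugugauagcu

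Among the 76 members with a sequence, 15 seeds were shared by 2 or more of them. For 10 of these seeds every matched member lay above the other lines, and for 4 every matched member lay below. Tested miRNAs that lay neither above nor below were left out of this count. Examples are miR-29c of the miR-29 family and miR-152 of the miR-148 and miR-152 list. The count thus does not show that whole families lay on one side. The seed AGUGCAA of miR-130a and miR-130b was the only one of the 15 with members on both sides. The largest seed groups were GAGGUAG, with 9 members (let-7a to let-7i and miR-98) that all lay below, and AAAGUGC, with 6 members (miR-17, miR-20a, miR-20b, miR-93, miR-106a and miR-106b) that all lay above. Some members of one seed are nearly identical: counted from 1 at the 5′ end, let-7b differs from let-7a by A17G and A19G, miR-10b from miR-10a by U12A, miR-196b from miR-196a by A12C, and miR-130b from miR-130a by U11A and A13G. Binding of one such miRNA to the probe of another was not measured, so values of near-identical members are uncertain to that extent. Median GC content was 44.5% in the matched members of each direction.

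Levels are log2 of the background-subtracted signal divided by the array's 75th percentile over 170 probes seen on every array. A miRNA is called read on an array when most spots of its probe were well above background, and lower values were set to a floor of -5.58. Levels of different miRNAs are not compared, since probes bind with different strength. The 67NR arrays read 141 to 160 miRNAs, against 175 to 191 in 168FARN, 147 to 158 in 4TO7 and 166 to 186 in 4T1. Before scaling, the 75th percentile of 67NR was 358 to 460 units of signal, below the 600 to 1213 of the other lines.

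The 67NR arrays stood apart from all others. Over the tested miRNAs the levels of 67NR arrays correlated with one another at r = 0.993 to 0.999, with 4T1 arrays at 0.626 to 0.636, with 4TO7 arrays at 0.611 to 0.620 and with 168FARN arrays at 0.539 to 0.551, whereas arrays of different lines other than 67NR correlated at 0.837 to 0.965. These are descriptions across miRNAs, which share probes and arrays. Some control probes also differed: the probes named hur_5 gave a mean signal of 180 to 207 on the 67NR arrays and 1.25 to 6.36 on the other 9, and those named hur_1 gave 189384 to 215403 against 45129 to 67010. Probes named hur_2 lay just above the others (301917 to 326056 against 215658 to 301821). Those named hur_4 (14878 to 16122 against 7031 to 17686), hur_6 and mr_1 overlapped the other arrays. A list of 113 mouse miRNAs, made from names alone, holds numbers taken to have no human miRNA of the same number. No check against human miRNAs was made, so some of its numbers, such as those of miR-297 and miR-466, may be in human use. Of this list 109 were read on no 67NR array, and 3 on all 67NR arrays, against 28 in 168FARN, 23 in 4TO7 and 24 in 4T1. Of the 113, 64 were read on no array of any line, beside 316 of all 567 mouse miRNAs. Of all 567, a 67NR array read 141 to 160 and an array of another line 147 to 191. The summed signal of the 113 was 238 to 397 on 67NR arrays and 2385 to 6183 on the others. The part of these features in the differences below was not tested, and since every comparison needs the 67NR arrays none can be given without them. The identity of the RNA on these 3 arrays was taken from the labels alone, no measurement here checks it, and 67NR below means the arrays labelled so.

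Epithelial markers were mixed. No member of the miR-200 family (5 on the array) was read on all arrays of any line, and their summed signal was 24 to 37.9 on 67NR arrays and at most 1.88 on the other 9. Within the family miR-141 and miR-200c were each read on 1 array, both times in 67NR, while miR-200a, miR-200b and miR-429 were read on none. Of 4 other epithelial miRNAs, miR-203 and miR-205 were read on no array, while miR-31 and miR-31* were read on all 12; the summed signal of the 4 was 86.5 to 109 on 67NR arrays and 1799 to 2979 on the others. Of 6 blood-cell miRNAs 1 was tested, and none was read in 67NR; the same held for 6 muscle miRNAs, and none of 5 liver and pancreas miRNAs was read. The endothelial miR-126-3p was read in 67NR, 4TO7 and 4T1, as given below.

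Against the mean of the 3 other lines 212 of 224 miRNAs passed (94.6%; limma, Benjamini-Hochberg adjusted p below 0.05), 113 higher in 67NR (50.4%) and 99 lower (44.2%). The difference exceeded 2-fold in 81 of the higher and 58 of the lower, the median over all 224 was 0.19, and the median SE was 0.0431. Against single lines 197 passed for 168FARN (87.9%), 107 higher (47.8%) and 90 lower (40.2%). For 4TO7 179 passed (79.9%), 108 higher (48.2%) and 71 lower (31.7%), and for 4T1 178 (79.5%), 106 higher (47.3%) and 72 lower (32.1%). These 3 comparisons share the 67NR arrays. Scaling sets the balance between the directions: the median over all 224 was -0.20 with the percentile of all probes, -0.14 after quantile scaling and -0.45 with no scaling, and 20 of the 212 calls turned with no scaling. With most miRNAs called, families are described by their sizes and by how many members lay beyond every other line.

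In all, 92 miRNAs lay above every other line (41.1% of those tested) and 47 below (21%), so the 67NR arrays lay beyond all 9 others for 139 (62.1%). Of the 92, 51 were read on all 12 arrays and 14 in 67NR only. These 14, and miR-10b, met the filter through 67NR alone, so a place above was close to fixed in advance. Of the 47, 25 were read on all 12 arrays and 19 on every array of the other lines but on none of 67NR. The 19 met the filter through the other lines alone, so a lower value was likewise close to fixed. The counts against the mean and against single lines hold such miRNAs too. The gap to the nearest line exceeded 2-fold for 68 of the 92 and 33 of the 47, with median gaps of 1.69 and 1.77 (log2). By the same 2-fold measure 168FARN lay above every other line for 29 miRNAs and below for 11, 4TO7 for 2 and 3, and 4T1 for 2 and 0. The nearest line was 168FARN for 38 of the 92, and 4TO7 and 4T1 for 27 each; for the 47 it was 4T1 for 22, 168FARN for 14 and 4TO7 for 11.

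**Figure D1:**
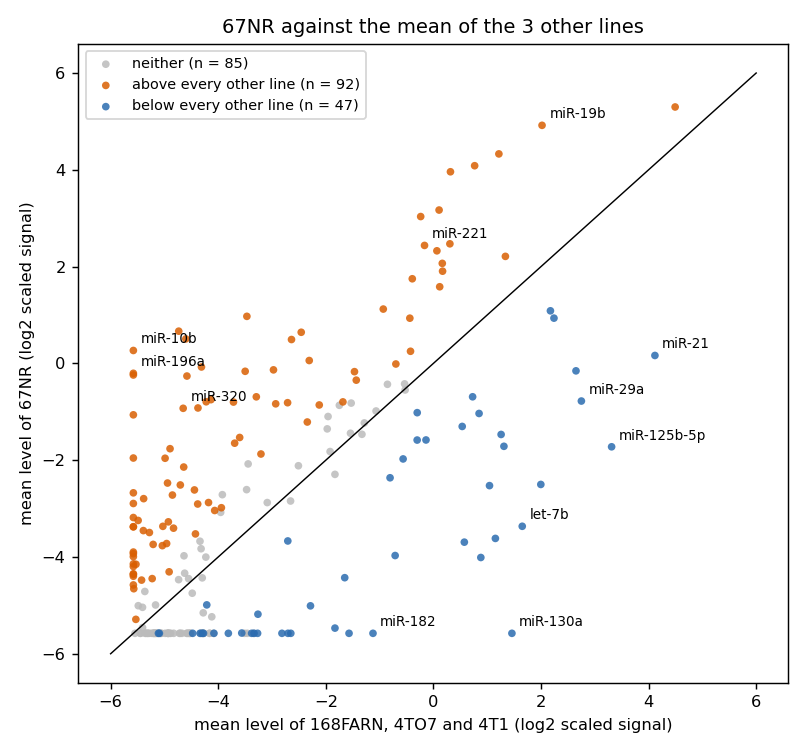
Mean level of each of the 224 tested miRNAs in 67NR (vertical axis, log2 scaled signal, 3 arrays) against the mean of the 3 other lines (horizontal axis, 9 arrays), with equality as a line; values at -5.58 are at the floor. The 92 miRNAs above every other line and the 47 below it lie on both sides at low and high levels, with miR-19b and miR-21 among the bright ones and miR-130a at the floor in 67NR.

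The arrays sat on 2 slides, with all 67NR arrays and 168FARN repeat 1 on the first and the other 8 on the second. Between the 67NR arrays and that 168FARN array, on the same slide, all 92 and all 47 members had the same direction. This was fixed by the definition of a member, which requires the 67NR arrays to lie beyond every other array, that one included. The shared direction is thus no check on slide. The sizes were not fixed in this way, although that array also enters the 168FARN mean. The medians were 1.98 and -2.15 on the shared slide, against 2.03 and -2.17 over all 168FARN arrays. With slide as a term 90 miRNAs lay above and 45 below. All 139 members kept their direction against the mean, with a median shift of 0.0293 (log2) and a largest shift of 0.541. This term is set by 168FARN alone, the only line on both slides, with 1 array on the first. No array of 4TO7 or 4T1 shares a slide with 67NR. For these lines slide and line cannot be told apart without that 1 array.

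The let-7 family, whose targets include the growth genes Ras and Hmga2, was lower in 67NR as a whole. All 9 members on the array passed the test against the mean and lay below every other line, with a median difference of -2.72. The size differed within the family. Let-7b stood at -3.49, -3.26 and -3.34 on the 67NR arrays and between 1.24 and 1.96 on the other 9. Its difference from the mean was -5.02 ± 0.0635 (SE, n = 3 arrays per line here and throughout; limma adjusted p = 9.98e-15), and -5.29 against the 168FARN array of the same slide. No 67NR array came near the others. Let-7d (-4.77 ± 0.0593), let-7i (-4.89 ± 0.0516) and let-7c (-4.50 ± 0.0551) were lower by similar amounts. Let-7a was at 1.07, 1.14 and 1.04 in 67NR and at 2.02 to 2.34 elsewhere, a difference of -1.09 ± 0.0472 (limma adjusted p = 7.22e-10). It was the least changed member. Let-7f (-1.31 ± 0.0444), let-7e (-1.42 ± 0.0635) and let-7g (-1.84 ± 0.0534) lay nearer to let-7a than to let-7b. The family member miR-98 was read on no 67NR array and was at least 4.77-fold lower than in the nearest line, 168FARN. A fold written as "at least" is set against the lowest level that was well above background on the arrays where the miRNA was not read.

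The miR-99/100 and miR-125 genes sit beside let-7 genes in the genome. Of 5 such miRNAs, 4 were lower against the mean and lay below every other line, and 1 was higher against the mean by 0.39 (log2) with this scaling. With the percentile of all probes none of the 5 was called higher, and with quantile scaling or none all 5 were lower. The list's median was -1.41. The array places the probe of miR-125b-5p at chr16:77646529-77646545 (mm9). The level of miR-125b-5p was -1.79, -1.69 and -1.69 in 67NR and 2.78 to 3.96 on the other arrays. The lowest of the 9 others, in 168FARN, was thus far above 67NR, with a nearest-line difference of -4.54 ± 0.0419 (limma adjusted p = 1.3e-15) and -4.50 on the shared slide. For miR-100 the nearest line was again 168FARN, at -2.12 ± 0.0597.

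The miR-17-92 cluster, known for promoting growth, and its paralogs were higher in 67NR. Of 14 such miRNAs on the array 11 were tested, and all 11 passed and lay above every other line, with a median difference of 3.10. After each of the 3 other scalings tried, 8 of the 11 still lay above every other line; the exceptions were miR-25, miR-93 and miR-106b, which share a cluster. From the miR-19 part of the cluster, miR-19a stood at 3.95, 4.02 and 3.91 in 67NR and at -0.52 to 0.87 elsewhere. Its nearest line was 4TO7, at a difference of 3.16 ± 0.0557 (limma adjusted p = 2.17e-13), and the difference from 168FARN was 4.47 on the shared slide. The 168FARN arrays were the lowest of all for this miRNA. MiR-92a was at 3.97, 4.17 and 4.12 in 67NR against -0.29 to 1.52, a difference from 4TO7 of 2.60 ± 0.0758 (limma adjusted p = 1.89e-11). MiR-18a (2.75 ± 0.0511), miR-17 (2.63 ± 0.0608), miR-20a (2.57 ± 0.0445) and miR-19b (2.40 ± 0.0492) lay above their nearest line by similar amounts. So did miR-106a (2.67 ± 0.0521) and miR-20b (2.58 ± 0.0287) of the paralogous X-linked cluster. Members of the third cluster were less far apart from their nearest line, with miR-106b at 1.69 ± 0.0449, miR-93 at 1.60 ± 0.0347 and miR-25 at 1.42 ± 0.0627.

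Strands of single miR-17-92 hairpins did not all lie on one side. On the array the cluster spans chr14:115442915-115443718 (mm9) with 9 tested strands, of which 7 lay above every other line, 1 below and 1 neither. The one below was miR-17*, the strand opposite miR-17: it was at the floor on all 3 arrays of 67NR and at -3.54 to -2.15 on the others, and it was at least 2.51-fold lower than in 168FARN. With normexp miR-17* was still lower against the mean, at -0.64 (log2), but no longer lay below every other line. MiR-17 itself was at 0.68, 0.53 and 0.71 in 67NR and at most -1.91 elsewhere. The other passenger strands were miR-20a*, at the floor in 67NR and in 168FARN and read in 4TO7 and 4T1, and miR-18a*, which was higher in 67NR like its guide, at -1.84, -1.74 and -1.70 against at most -4.27. Of the 92 miRNAs above, 10 were passenger strands, and of the 47 below, 9.

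**Figure D2:**
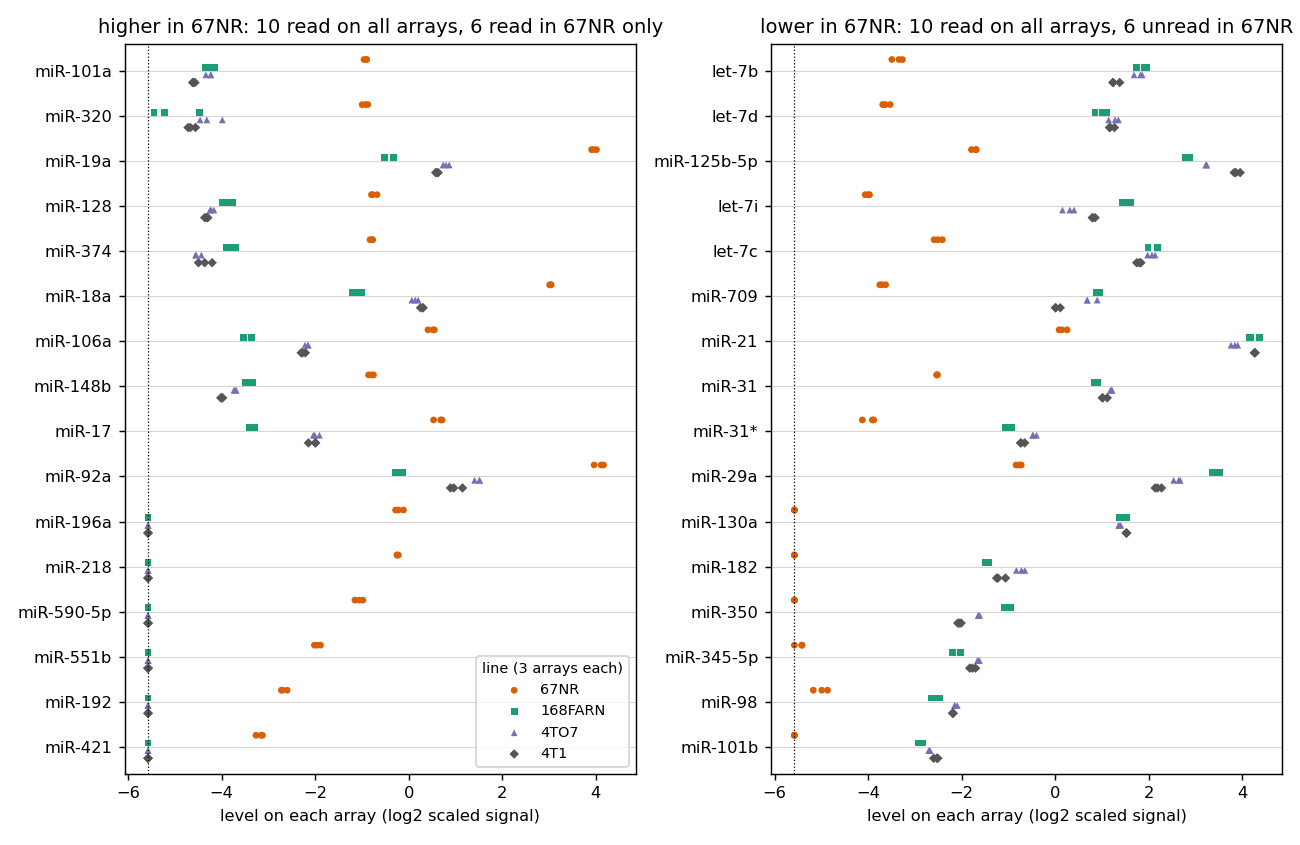
Level on each of the 12 arrays (horizontal axis, log2 scaled signal, 1 point per array, 4 lines by colour and shape) of the 16 miRNAs named as higher in 67NR (left) and the 16 named as lower (right); the dotted line is the floor of -5.58. In every one the 3 arrays of 67NR lie beyond the other 9, for example let-7b at -3.49 to -3.26 against 1.24 to 1.96.

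MiRNAs from within the Hox clusters, which encode regulators of body position, were higher in 67NR. Of 5 on the array 4 were tested, and all 4 passed and lay above every other line, with a median difference of 5.39 that includes floored values. Of these 4, miR-10b and miR-196a met the filter through 67NR alone, so for them a call of higher was close to fixed in advance. MiR-10a was at 0.62, 0.73 and 0.64 in 67NR, at -3.11 to -2.96 in 168FARN and at the floor in 4TO7 and 4T1. The difference from 168FARN was 3.71 ± 0.0401 (limma adjusted p = 4.25e-15). MiR-196b stood at -0.18, 0.01 and -0.06 in 67NR, at the floor in 168FARN, and at -3.78 to -3.51 in 4TO7 and 4T1. Thus the second-ranked line was not the same for miR-10a and miR-196b. MiR-196a was read on the 67NR arrays only and was at least 36.6-fold higher there than in any other line. MiR-10b, reported to promote breast cancer spread, was at 0.27, 0.29 and 0.24 in 67NR and at the floor on the other 9 arrays, although 2 of the 168FARN arrays marked it as read, so no bound is given.

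Besides miR-196a, the 5 largest bounds among miRNAs read on the 67NR arrays only were those of miR-218 (at least 35.7-fold), miR-590-5p (20.2-fold), miR-551b (10.9-fold), miR-192 (6.60-fold) and miR-421 (4.64-fold). MiR-218 is encoded within the Slit genes, and miR-192 is a miRNA that p53 is known to raise. MiR-218 stood at -0.25, -0.22 and -0.25 on the 67NR arrays. All 9 other arrays were at the floor for each of these 5. As these 5 met the filter through 67NR alone, a call of higher was close to fixed in advance.

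In the reverse pattern, miRNAs read on every array of the other lines but on none of 67NR, miR-130a had the largest bound. It was at the floor on the 67NR arrays and between 1.36 and 1.53 on the other 9, at least 73.6-fold lower in 67NR than in 4TO7, the nearest line. The other 9 arrays differed little among themselves. The next were miR-182 (at least 10.3-fold), miR-350 (6.86-fold), miR-345-5p (6.69-fold), miR-98 and miR-101b (3.84-fold). MiRNAs of this pattern met the filter through the other lines alone, so a lower value in 67NR was close to fixed in advance.

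MiR-130b, which shares its seed with miR-130a, lay on the opposite side. It was at -0.21, -0.10 and -0.18 in 67NR, at the floor in 168FARN, and at -2.76 to -2.20 in 4TO7 and 4T1. The difference from 4T1, the nearest line, was 2.05 ± 0.0441 (limma adjusted p = 1.31e-12). Of the 4 tested members of the miR-130 and miR-301 list, 1 lay above, 1 below and 2 neither.

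MiR-101a and miR-101b also lay on opposite sides. They repress the histone methyltransferase Ezh2, and their sequences are offset by 1 base, so bases 2 to 8 differ. MiR-101a was at -0.91, -0.90 and -0.96 in 67NR and between -4.62 and -4.16 elsewhere, a difference from 168FARN of 3.34 ± 0.0490 (limma adjusted p = 4.31e-14). MiR-101b was at the floor in 67NR and at -2.92 to -2.51 elsewhere. The arrays of 67NR were thus the highest for the one and the lowest for the other.

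**Figure D3:**
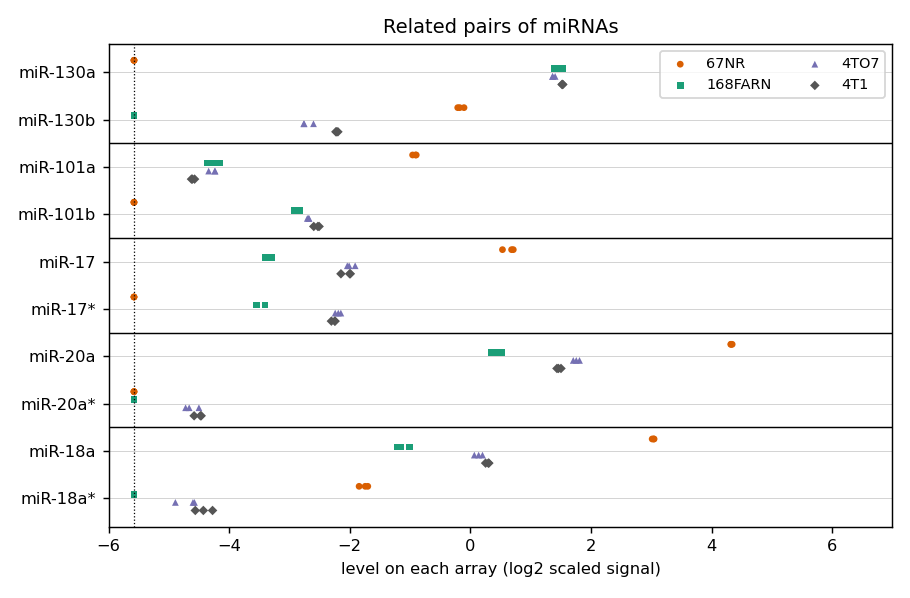
Level on each of the 12 arrays (horizontal axis, log2 scaled signal) of 5 pairs of related miRNAs, separated by lines: 2 pairs from families and 3 pairs of strands of one hairpin; the dotted line is the floor. In 67NR miR-130a, miR-101b, miR-17* and miR-20a* are at -5.58 while their partners miR-130b, miR-101a, miR-17 and miR-20a are the highest of the 4 lines.

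The miR-148 members that repress the DNA methyltransferase Dnmt1 were higher in 67NR: of 3 tested in the miR-148 and miR-152 list, 2 lay above every other line. MiR-148b was at -0.86, -0.75 and -0.79 against -4.02 to -3.34, with a difference from 168FARN of 2.63 ± 0.0430 (limma adjusted p = 1.04e-13). MiR-148a was at 0.54, 0.53 and 0.44 in 67NR, at -2.70 to -2.61 in 4TO7 and at the floor in 168FARN and 4T1. Its nearest-line difference was 3.16 ± 0.0326.

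MiR-221 and miR-222, repressors of the cell-cycle inhibitor p27, both lay above every other line, miR-221 at 2.28, 2.53 and 2.50 against -0.70 to 0.13 and miR-222 at 0.02, 0.02 and 0.14 against -2.82 to -1.99. The differences from the nearest line were 2.38 ± 0.0878 and 2.07 ± 0.0557. Of 7 members of the miR-15/16 list, whose targets include cyclins, 6 were higher against the mean and 1 lower, and 3 lay above every other line and 1 below, with a median of 0.88 that became -0.16 with no scaling. The clearest were miR-15a (1.94 ± 0.0352 from 4T1) and miR-16 (1.80 ± 0.0460 from 168FARN). MiR-34a, a p53 target, was at 0.90, 1.06 and 0.96 in 67NR, at -1.02 to -0.82 in 168FARN, at -3.94 to -3.88 in 4T1 and at the floor in 4TO7, a nearest-line difference of 1.90 ± 0.0532 (limma adjusted p = 1.25e-11). The other 3 tested members of the miR-34 and miR-449 list lay neither above nor below every line and were read on no 67NR array. The remaining miRNAs among the 10 farthest above their nearest line were miR-320 (3.33 ± 0.210), miR-128 (3.11 ± 0.0553) and miR-374 (3.01 ± 0.0725). MiR-128 is known from brain. Of 9 nervous-system miRNAs on the array 6 were tested, while miR-124, miR-137 and miR-7b were read on no array. Of the 6, 5 lay above every other line, beside 41.1% of all tested, but after the 3 other scalings miR-128 alone did so. All 4 members of the miR-30 list that lay above every other line likewise lost that place after at least one of these scalings. Endothelial miR-126-3p was at -2.01, -1.90 and -1.96 in 67NR, at the floor in 168FARN and at -4.89 to -4.58 in 4TO7 and 4T1.

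MiR-21, which is raised in many tumours, was lower in 67NR. It was at 0.15, 0.26 and 0.09 on the 67NR arrays and between 3.77 and 4.37 on the other 9, a difference from 4TO7 of -3.68 ± 0.0611 (limma adjusted p = 1.36e-13) and from 168FARN on the shared slide of -4.02. Its passenger strand lay below as well, except with normexp. The epithelial miR-31, reported to hold back breast cancer spread, was at -2.52, -2.53 and -2.53 in 67NR against 0.84 to 1.22, a difference from 168FARN of -3.40 ± 0.0334 (limma adjusted p = 2.21e-15), and its passenger strand miR-31* at -2.99 ± 0.0634. Both strands of this hairpin thus lay on the same side.

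Of the 3 members of the miR-29 family, which targets collagens, 2 lay below every other line. The third member was not called against the mean with this scaling, but all 3 were lower with each of the 3 other scalings. MiR-29a was at -0.83, -0.72 and -0.78 in 67NR and at 2.14 to 3.51 elsewhere, at -2.98 ± 0.0547 from 4T1 (limma adjusted p = 3.3e-13). MiR-29b was at -2.31 ± 0.0563 from the same line. In the miR-23/24/27 list 3 of 5 members lay below every other line, and miR-23b and miR-27b were higher against the mean with this scaling. Those below were miR-23a (-2.64 ± 0.0869 from 4T1), miR-27a (-2.29 ± 0.0455 from 4T1) and miR-24 (-1.77 ± 0.0343 from 168FARN).

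MiR-709 was at -3.71, -3.75 and -3.63 in 67NR against 0.01 to 0.96 on the other arrays, a difference from 4T1 of -3.74 ± 0.0597 (limma adjusted p = 1.06e-13). It belongs to the list of numbers taken to have no human miRNA of the same number, of which 41 miRNAs were tested. Against the mean 37 were lower and 2 higher, and 6 lay below every other line and none above. The list's median was -0.99 against 0.19 over all tested. With normexp background correction it was 0.17, where the median over all tested was 0.55. With normexp 9 of the 41 were lower and 21 higher, and 1 of the 6 kept its place below every other line. Only 3 of the list were read on all 67NR arrays, so most entered the test through other lines. For those unread in 67NR a lower value there was close to fixed by the filter. Most of the 41 are also miRNAs of the 2 groups given next, which are thus no separate result. Of the 13 tested miRNAs from the intron of Sfmbt2, a large rodent cluster, all 13 were lower against the mean, and of 18 tested X-linked miRNAs near Fmr1 17 were, with medians of -1.06 and -0.67 that became 0.11 and 0.22 with normexp. With normexp 3 of the Sfmbt2 miRNAs were lower and 5 higher, and 3 of those near Fmr1 were lower and 11 higher. None of either group lay below every line. The Sfmbt2 miRNAs were read on all arrays of 4TO7 and 4T1 only and those near Fmr1 on all arrays of 168FARN only. Both groups were thus tested through those lines alone. As none was read in 67NR, a lower value against the mean was close to fixed with this floor. None of the Sfmbt2 miRNAs was lower than in 168FARN, and none of those near Fmr1 was lower than in 4TO7 or 4T1. The counts against the mean thus describe the other lines more than 67NR. In the mesenchymal list (6 tested of 8) no member lay above or below every line.

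Lists drawn up from reports on breast cancer metastasis were split. Of 8 tested promoters of metastasis, 4 lay above every other line (miR-10b, miR-103, miR-107 and miR-9) and 3 below (miR-21, miR-155 and miR-182), beside 41.1% above and 21% below among all tested. MiR-9 lost its place after at least one of the 3 other scalings, and miR-155 with normexp. Of 10 tested suppressors, 3 lay above (miR-34a, miR-126-3p and miR-148a) and 1 below (miR-31). The medians against the mean were 0.52 and 0.49, beside 0.19 over all 224, and -0.51 and -0.29 with no scaling. MiR-103, a regulator of the miRNA-processing enzyme Dicer, was at 2.33, 2.37 and 2.28 in 67NR and at most 0.53 elsewhere, at 1.82 ± 0.0477 from 4T1, and its near-identical partner miR-107 was at 1.82 ± 0.0495 from the same line. MiR-182, of the miR-183 cluster, was at the floor in 67NR and at -1.49 to -0.65 on the other arrays.

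**Figure D4:**
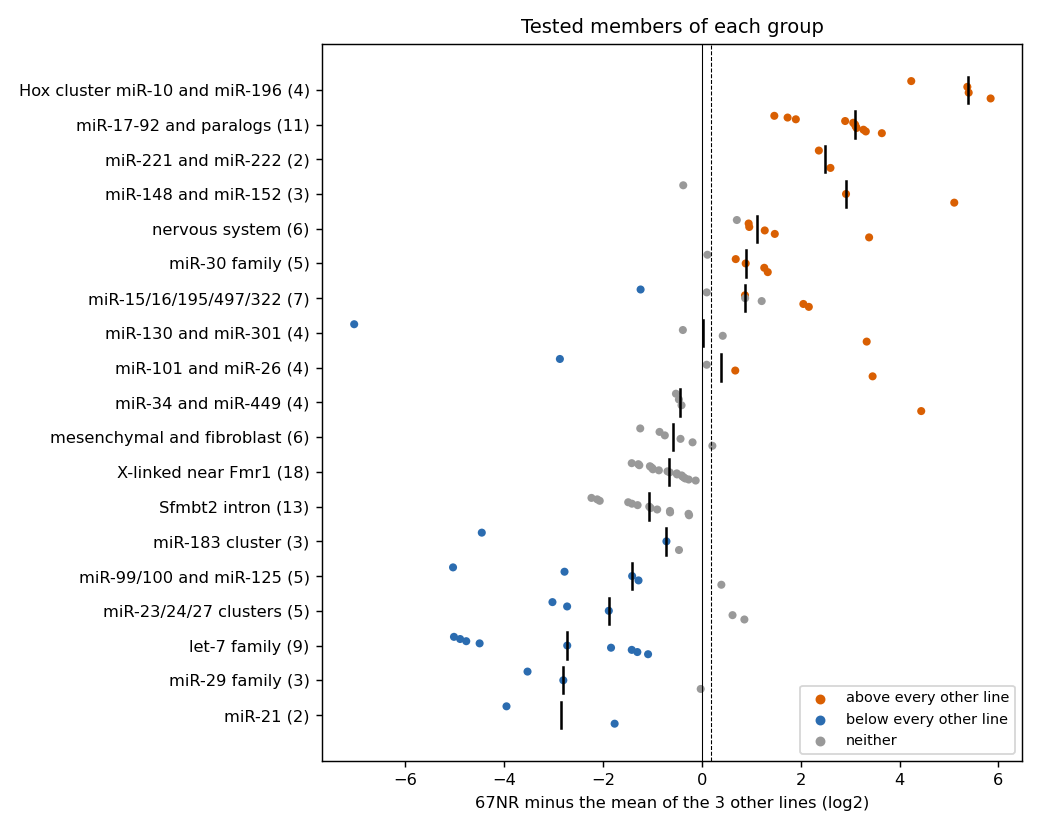
Difference of 67NR from the mean of the 3 other lines (horizontal axis, log2) for each tested member of 19 groups, 1 point per miRNA and a bar at the group's median, with the number tested in brackets; the dashed line is the median of all 224, 0.19. The Hox and miR-17-92 groups lie wholly to the right, the let-7 group wholly to the left, and the miR-130 and miR-101 groups on both sides.

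Neighbouring miRNAs were grouped by position. Of 46 groups of tested strands within 10 kb of each other, 11 had members above every other line and no others, 8 had members below and no others, and 3 had both; a further 10 held neither kind and 14 mixed one kind with neither. The groups with both kinds were the miR-17-92 cluster, the Clcn5 intron and a group on the X chromosome. Every one of the 139 members had at least 1 other probe, and for 119 all other probes differed in the same direction. One member, miR-487b, had another probe that differed by over 0.1 (log2) in the opposite direction.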

How the data were processed

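The authors deposited, for each of 12 one-colour Agilent mouse miRNA arrays, spot intensity values. Per the file headers they are processed signals of Feature Extraction 10.2.1.3, with background subtracted and no scaling between arrays. The deposited value table held equal values (largest difference 0). The deposited flags (the unit "other") mark spots well above background and outlier spots. The submitters' processing notes name mm9.

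Control spots and 284 to 508 outlier spots per array were left out, and no spot was saturated. Spots of a probe were averaged, and a probe counted as read where over 50% of its spots were well above background. Arrays were divided by their 75th percentile over the 170 probes read on all 12, values under 0.0209 were set to that floor, and log2 was taken. The floor is the lowest value read on an array, as a median of the 12 arrays. Of 1712 probes, 15.2 to 21.1% were read on an array; precision is limited by 3 arrays per line. The brightest probe stood for a miRNA, and a miRNA was tested if read on all 3 arrays of at least 1 line. limma 3.58.1 in R 4.3.3 (data.table, version 1.17.8) fitted the 4 lines to all 12 arrays, with 8 residual degrees of freedom, and was tested on simulated data. Where values sit at the floor the SE holds no spread, so bounds are given where a side was read on no array. The 4 lines share 1 estimate of the spread. An SE is thus also too small where a line outside the comparison sits at the floor, as for miR-10a, miR-34a, miR-130b and miR-148a.

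Named were the 10 miRNAs farthest above and the 10 farthest below their nearest line among those read on all 12 arrays, the 6 largest bounds each way, and list members in order of adjusted p. MiRNAs named outside that rule, passenger strands and related pairs among them, were chosen after their values were seen. Members and lists were chosen with earlier results of these data known. Alternatives were other scalings, normexp, the gene total signal, all probes averaged, other filters and floors, slide, replicate block, arrays left out, only the lines compared, a minimum fold and a trended robust variance. The 10 viral miRNAs were left out, as they are not of the mouse.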

Additional observations from a re-analysis of the deposited data

Results flagged for a closer look

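A signal appeared in control probes that no comparison uses. The probes named hur_5 gave a mean signal of 180 on the lowest 67NR array, while the other 9 arrays gave 1.25 to 6.36 and the probes named NegativeControl gave at most 2.39 on any array. What these probes bind is not given in the sources used here.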

How the results depend on the processing

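Of 92 miRNAs above every other line 56 stayed so under each of 3 other scalings (75th percentile of all probes, none, quantile), and of 47 below, 46. With normexp added, 56 and 30 did. The median difference of all tested miRNAs was 0.19, and -0.20, -0.45, -0.14 and 0.55 with these 4 settings. Without scaling 74 miRNAs were higher than the mean, 66 higher than 4T1 and 56 above every other line, and 36.8% of calls were higher, against 53.3%. With normexp 42 were lower than the mean, 50 than 168FARN, 47 than 4TO7 and 39 than 4T1, 172 were higher than 4T1, 30 lay below every other line and 79.2% of calls against the mean were higher. The cause was not tested. Restricting to miRNAs read on all 12 arrays, which leaves 96, gave 89 calls against the mean (62 higher, 27 lower), 91 against 168FARN (61, 30), 86 against 4TO7 (58, 28), 87 against 4T1 (58, 29), and 51 above and 25 below; 69.7% of calls against the mean were higher. Leaving out each array in turn gave 91 to 93 above, 46 to 48 below and 210 to 213 calls against the mean. The differences from the mean of 62 miRNAs named with levels, differences or bounds kept their direction and call under each alternative in which they were tested; the member of the miR-99/100 list at 0.39 did not. Signal near background limits the low miRNAs: with the floor doubled 87 and 39 kept their place.

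Samples with the same repeat number did not deviate together more than others did. For the same number r ran from -0.796 to 0.556 over 18 pairs, with a median of 0.00752. For different numbers it ran from -0.692 to 0.857 over 36 pairs, with a median of 0.0154. No pairing by number was thus seen. With a replicate block 212 miRNAs passed against the mean, 194 against 168FARN, 178 against 4TO7 and 178 against 4T1, with 91 above and 47 below.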
